A study of Mus musculus with 14 samples.

Results

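The transcripts of 9 interferon response genes, Irf7, Irf8, Irf9, Ifit1, Ifit3, Oasl2, Usp18, Bst2 and Ifitm3, were followed in the dorsal hippocampus of male 8-month-old C57BL6 mice. The members were the rows of the basal and the learning count tables that carry these gene names, 9 of 27591 genes listed in the series, and all 9 passed the filter on low counts in both tables. The basal experiment compared untrained WT (n = 3) with untrained THY-Tau22 mice (n = 2). In the learning experiment, WT mice received saline and either stayed in the home cage (WT VEH_HC, n = 3) or were trained in the Morris water maze (WT VEH, n = 2), and trained THY-Tau22 mice received either the carbon nanospheres alone (CSP, TAU VEH, n = 2) or the nanospheres carrying the CBP/p300 acetyltransferase activator TTK21 (CSP-TTK21, TAU MOL, n = 2). THY-Tau22 mice are heterozygous for a mutated human Tau driven by the Thy1.2 promoter, which restricts the transgene to neurons, so that glial transcripts do not carry it. TAU VEH and WT VEH differ in genotype and in the injected vehicle, which cannot be told apart, and the study left 3 mice of 1 litter out of the learning experiment after the libraries had been compared.

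Libraries held 28639121 to 37681155 counts on genes in the basal and 24693713 to 52180305 in the learning experiment. Thy1, whose promoter drives the transgene, was at 795 to 874 CPM (counts scaled to a common library total, with TMM factors) in the basal WT and at 1842 to 2352 CPM in the basal THY-Tau22 libraries. In the learning experiment it was at 786 to 914 CPM in the 5 WT and at 1805 to 2109 CPM in the 4 THY-Tau22 libraries, so that every library matched its genotype label. The 8 markers of hippocampal neurons were present in all 14 libraries, and those of T and B cells summed to no more than 0.786 CPM. Markers of the choroid plexus, a tissue that borders the hippocampus, differed between the learning groups, with a sum of 2172 to 3128 CPM in WT VEH, 158 to 412 in WT VEH_HC, 459 to 538 in TAU VEH and 1062 to 1172 in TAU MOL. The change of a gene's level with its GC content also differed between libraries.

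Interferons are cytokines released by cells that sense viral or misplaced nucleic acid. Type I interferons bind a receptor at the cell surface, and the signal reaches a complex with Irf9 that binds the interferon-stimulated response element (ISRE) and turns on a wide set of antiviral genes, whereas many genes that respond to interferon gamma carry the gamma-activated site (GAS). Irf7 amplifies the type I response, Irf9 carries its signal, and Irf8 is a transcription factor of microglia and other myeloid cells. Ifit1 and Ifit3 bind foreign RNA or its partners, Oasl2 belongs to the oligoadenylate synthetase family, Bst2 (tetherin) holds virus particles at the cell surface, Ifitm3 blocks virus entry from endosomes and is abundant in vessel cells of the brain, and Usp18 removes Isg15 from proteins and dampens the receptor.

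Promoter sequences show which members carry these elements close to the start of transcription. RefSeq windows from 250 bases before to 50 bases after the start (build GRCm38.p6) were at hand for 8 of the 9 members, with 2 windows each for Irf8 and Irf9, and Usp18 was absent from the table. The ISRE core was searched as GAAANNGAAA and the GAS as TTCNNNGAA, on both strands. The ISRE core was present in the windows of Ifit1, Ifit3, Bst2 and Ifitm3, against 3.45% of 32544 promoter windows, and the GAS in those of Bst2, Ifitm3 and Irf8, against 8.33%. The Ets-IRF core GGAANNGAAA, the kind of site that Irf8 shares with Ets factors, was in no member's window and in 2.73% of all windows. The 250 bases before the start of the 3 members with upstream ISRE cores are shown first, with the cores in capitals, and are followed by the same stretch of Irf8 with its 2 GAS matches in capitals. All 4 stretches were found once and without a mismatch in the mm9 genome, the build of the counts, at chr19:34715129-34715378 (plus strand) for Ifit1, chr19:34657769-34658018 (plus strand) for Ifit3, chr8:74061372-74061621 (minus strand) for Bst2 and chr8:123260008-123260257 (plus strand) for Irf8.
Ifit1: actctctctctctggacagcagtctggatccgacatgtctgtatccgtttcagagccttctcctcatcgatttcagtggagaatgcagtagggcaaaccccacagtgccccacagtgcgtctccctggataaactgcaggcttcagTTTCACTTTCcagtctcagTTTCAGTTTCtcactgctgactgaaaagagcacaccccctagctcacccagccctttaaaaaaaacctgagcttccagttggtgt
Ifit3: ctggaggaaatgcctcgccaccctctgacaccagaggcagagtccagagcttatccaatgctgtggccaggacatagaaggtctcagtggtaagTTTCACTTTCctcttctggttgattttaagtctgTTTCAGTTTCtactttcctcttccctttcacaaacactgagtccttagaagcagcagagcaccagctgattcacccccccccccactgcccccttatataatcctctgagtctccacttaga
Bst2: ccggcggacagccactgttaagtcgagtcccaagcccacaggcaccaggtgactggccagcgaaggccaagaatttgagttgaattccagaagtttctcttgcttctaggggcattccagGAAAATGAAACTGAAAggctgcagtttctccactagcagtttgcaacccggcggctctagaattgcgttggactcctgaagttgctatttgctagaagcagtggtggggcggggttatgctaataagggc
Irf8: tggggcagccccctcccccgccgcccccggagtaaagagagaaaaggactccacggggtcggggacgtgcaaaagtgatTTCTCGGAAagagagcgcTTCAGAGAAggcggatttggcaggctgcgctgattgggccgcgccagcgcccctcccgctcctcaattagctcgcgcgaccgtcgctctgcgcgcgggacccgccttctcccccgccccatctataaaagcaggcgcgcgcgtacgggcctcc
In Ifit1 the cores began at -104 and -85 relative to the start, and in Ifit3 at -156 and -122, in all 4 cases on the minus strand of the gene. In Bst2 the cores overlapped each other, and a GAS match overlapped the first of them. Ifitm3 held both its ISRE cores after the start, at bases 3 and 20 of the first exon, of which the first 30 bases are shown with the cores in capitals.
Ifitm3: agGAAAAGGAAActtctgaGAAACCGAAAc
No match of these letters was found in the windows of Oasl2, Irf7, Irf9 and the second Irf8 start, which says nothing about a factor's binding there.

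The level of each gene per kilobase of exon set the scale of the measurement. In the basal libraries the median was highest for Ifitm3, at 17.1 CPM per kb, followed by Bst2 at 6.62, Ifit3 at 2.18 and Irf9 at 1.66 CPM per kb. Oasl2 at 0.97, Irf8 at 0.855, Irf7 at 0.677, Usp18 at 0.601 and Ifit1 at 0.479 CPM per kb were low. The order was the same in the learning libraries, from a median of 13.9 CPM per kb for Ifitm3 to 0.352 for Ifit1, although Ifit3 and Irf9 (1.44 and 1.43) and Usp18 and Ifit1 (0.359 and 0.352) were nearly level there. The members with the fewest counts were Usp18, with 18 to 65 counts per library, and Ifit1, with 24 to 78, so that counting error alone is wide for both. All values come from whole tissue, in which fewer cells of a type and less RNA per cell cannot be told apart.

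Irf8 was the only member that stood higher in every THY-Tau22 library than in every WT library of the same experiment. Irf8 (ENSMUSG00000041515, mm9 chromosome 8 from 123260258 to 123280594, plus strand, counted over 11 exon blocks) was at 5.38, 6.03 and 5.69 CPM in the 3 basal WT libraries and at 8.25 and 9.09 CPM in the basal THY-Tau22 libraries. In the learning experiment it was at 5.85, 5.78 and 5.66 CPM in WT VEH_HC, 5.10 and 4.48 in WT VEH and 6.71 and 7.47 in TAU VEH, with 6.79 and 6.58 in TAU MOL. The groups of the 2 genotypes did not overlap in either experiment. Of all genes tested, 10.0% were higher in all 4 THY-Tau22 than in all 5 WT learning libraries, and 1.22% of 16216 genes were higher in every THY-Tau22 library of both experiments. The order of the learning groups by mean Irf8 ran from WT VEH (4.79 ± 0.441 CPM, SD, n = 2) through WT VEH_HC (5.76 ± 0.0967, n = 3) and TAU MOL (6.69 ± 0.145, n = 2) to TAU VEH (7.09 ± 0.537, n = 2). TAU MOL and TAU VEH, neighbours in that order, overlapped, and the other neighbours did not.

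**Figure D1:**
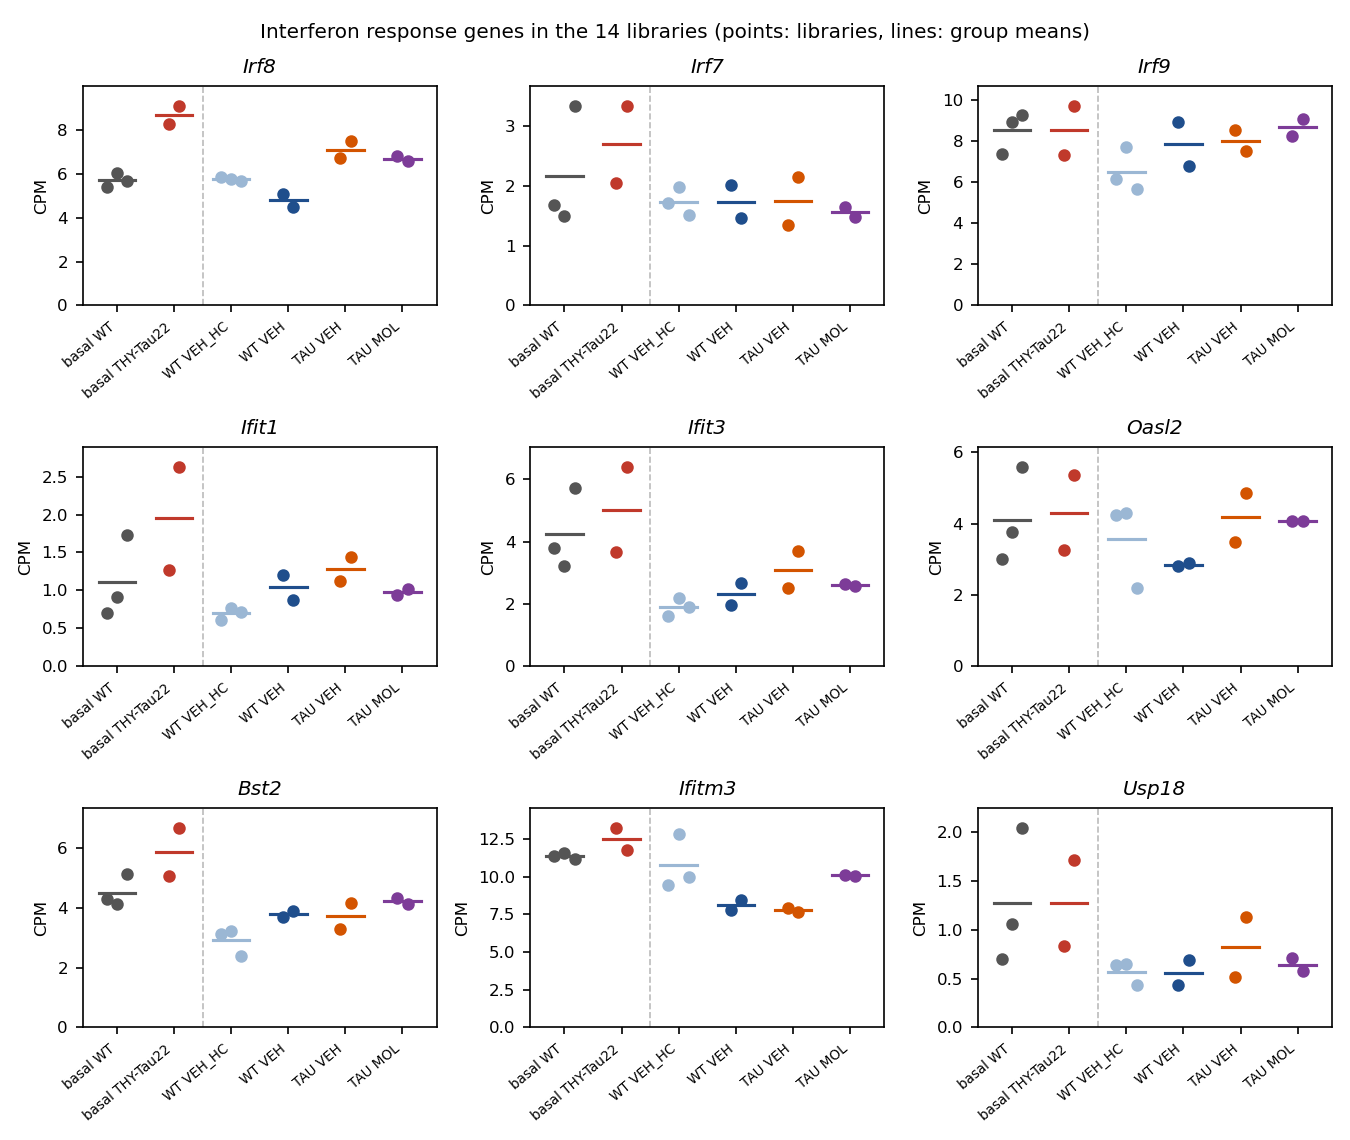
CPM of the 9 members in each of the 14 libraries (points) with the group means (lines), one panel per gene, with the basal groups left and the learning groups right of the dashed line and every vertical axis starting at 0. Irf8 sits above 8 CPM in both basal THY-Tau22 libraries and no higher than 6.03 CPM in the WT ones, while the points of Ifit1, Irf7 and Usp18 spread widely within the basal groups.

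In the basal comparison, Irf8 was 1.52-fold higher in THY-Tau22 than in WT mice (log2 fold change 0.60, standard error 0.15, 95% interval 0.26 to 0.95), which did not pass (edgeR quasi-likelihood test, adjusted p = 0.675). To pass, a gene needed an adjusted p below 0.05 and a log2 fold change of more than 0.2 in size. The lowest adjusted p of Irf8 among the 13 alternatives was 0.0972, without basal THY-Tau22 replicate 1. None of the 9 members passed, 1 had an unadjusted p under 0.05, and DESeq2 called 0 as well. Of all 16324 genes tested, 4 passed (0.0245%). Ifitm3 also did not overlap between the basal genotypes, at 11.4, 11.6 and 11.2 CPM in WT and 13.2 and 11.8 CPM in THY-Tau22, beside 9.01% of all genes that were higher in both THY-Tau22 libraries, and 0 members were lower without overlap, beside 9.49%. Its log2 fold change was 0.14 (standard error 0.13, adjusted p = 0.915 by edgeR), and it was 0.07 without basal THY-Tau22 replicate 1 and 0.22 without replicate 2.

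In trained mice, Irf8 was 1.47-fold higher in TAU VEH than in WT VEH (log2 fold change 0.56, standard error 0.12, 95% interval 0.29 to 0.83, adjusted p = 0.0110 by edgeR). It was the single member of 9 that passed, in a comparison in which 14.4% of all 16820 genes passed. The adjusted p lay between 0.00477 and 0.352 in the 19 alternatives. The call was lost without WT VEH replicate 2 (log2 fold change 0.47, adjusted p = 0.100), without TAU VEH replicate 2 (0.49, adjusted p = 0.0819) and with the choroid plexus score as a covariate (0.66, adjusted p = 0.352), a fit that called 0 genes in this comparison. In TAU MOL, the mice given CSP-TTK21, Irf8 was 1.40-fold above WT VEH (log2 fold change 0.48, standard error 0.12, 95% interval 0.21 to 0.75, adjusted p = 0.0444 by edgeR), again the single member of 9, beside 5.63% of all genes. That call was lost under 11 of the 19 alternatives, given with the limits of the processing, and both comparisons share the WT VEH libraries. Beside Irf8, Oasl2, Bst2 and Ifitm3 were higher in both TAU MOL than in both WT VEH libraries without passing, as were 25.6% of all genes.

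Between the THY-Tau22 groups, a difference in Irf8 was not detected (TAU MOL vs TAU VEH, log2 fold change -0.08, 95% interval -0.34 to 0.19, adjusted p = 0.986 by edgeR). The interval does not show that the groups were alike. No member passed in this comparison, 1 had an unadjusted p under 0.05, DESeq2 called 0, and 0.0% of all genes passed. In WT mice, Irf8 was lower in both trained libraries than in all 3 home-cage libraries, a difference that did not pass (WT VEH vs WT VEH_HC, log2 fold change -0.27, standard error 0.11, adjusted p = 0.156 by edgeR). The value was -0.17 without WT VEH replicate 2 and with the GC and length correction, -0.16 with that correction and the replicate block, and -0.42 with the choroid plexus covariate. In that comparison 20.8% of all genes were lower in both WT VEH libraries than in all 3 WT VEH_HC libraries.

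Microglia, the resident macrophages of the brain, are the main source of Irf8 there, and the 14 markers fixed for them were all tested. Their summed level was 719 to 750 CPM in basal WT, 838 to 845 in basal THY-Tau22, 522 to 608 in WT VEH_HC, 640 to 665 in WT VEH, 644 to 714 in TAU MOL and 649 to 744 in TAU VEH, with no marker at 0. In the basal comparison 13 of the 14 markers had a fold change above 0 and 10 were higher without overlap, beside 48.4% and 9.01% of all genes, and 0 passed. In TAU VEH vs WT VEH, Ctss rose (log2 fold change 0.51) and Tmem119 fell (-0.35), 1 marker called in each direction, beside 14.4% of all genes called. Both were named after their values were seen. The median over the 14 markers was 0.07, and 5 were higher and 1 lower without overlap, beside 28.5% and 29.4% of all genes. In WT VEH vs WT VEH_HC, 3 of the 14 passed, beside 8.4% of all genes. They were Ctss (0.43), P2ry12 (0.53) and C1qc (0.39), which rose and were also named after their values were seen. In that comparison 12 of the 14 markers were above 0, beside 49.6% of all genes, and 10 were higher and 1 lower without overlap, beside 23.0% and 20.8%. Set against this sum, Irf8 was at 7.17 to 8.24 CPM per 1000 CPM of markers in basal WT and at 9.85 and 10.8 in basal THY-Tau22. In the learning libraries the same ratio was 6.73 and 7.97 in WT VEH, 9.51 to 10.2 in TAU MOL and 10.0 to 10.3 in TAU VEH, but it was 9.56 to 11.1 in WT VEH_HC, which overlapped the THY-Tau22 libraries. The part of the microglial markers in the Irf8 difference was not tested.

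The summed level of astrocyte markers also separated the genotypes in both experiments. Those of neuronal and endothelial markers and the GC trend did so in the learning experiment. The summed level of the 7 astrocyte markers was 4497 to 4730 CPM in basal WT and 5079 to 6181 CPM in basal THY-Tau22, and 3901 to 4183 CPM in the 5 WT and 4696 to 5266 CPM in the 4 THY-Tau22 learning libraries. In TAU VEH vs WT VEH, 3 of the 7 passed, beside 14.4% of all genes, namely Gfap (log2 fold change 0.70), Slc1a2 (0.35) and Aqp4 (0.37), which rose. The median of the 7 was 0.15, and 4 were higher and 1 lower without overlap, beside 28.5% and 29.4% of all genes. The summed level of the 8 neuronal markers overlapped between the basal genotypes (5437 to 6332 CPM in WT, 5235 to 5915 CPM in THY-Tau22), but it was 6298 to 7281 CPM in the WT and 4838 to 5369 CPM in the THY-Tau22 learning libraries. In TAU VEH vs WT VEH, 3 of the 8 passed, namely Slc17a7 (log2 fold change -0.63), Wfs1 (-0.92) and Rbfox3 (-0.33), which fell. The median of the 8 was -0.10, and 2 were higher and 4 lower without overlap, beside the same shares of all genes. These markers were named after their values were seen. The correlation across genes (Spearman) of GC content with the level relative to the experiment mean was 0.08 to 0.45 in the 5 WT and -0.62 to -0.40 in the 4 THY-Tau22 learning libraries, whereas the basal genotypes were not separated by it (0.07 to 0.32 in WT, 0.48 and -0.60 in THY-Tau22). With the GC and length correction, the log2 fold change of Irf8 was 0.62 in TAU VEH vs WT VEH (adjusted p = 0.0227) and 0.52 in TAU MOL vs WT VEH (adjusted p = 0.113). The summed level of the 8 endothelial markers was 164 to 273 CPM in the 5 WT and 131 to 152 CPM in the 4 THY-Tau22 learning libraries, and it overlapped between the basal genotypes. In TAU VEH vs WT VEH, 0 of the 8 passed, their median was -0.31, and 0 were higher and 6 lower without overlap, beside 28.5% and 29.4% of all genes. The part of neurons, astrocytes and endothelial cells in the Irf8 differences was not tested.

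**Figure D2:**
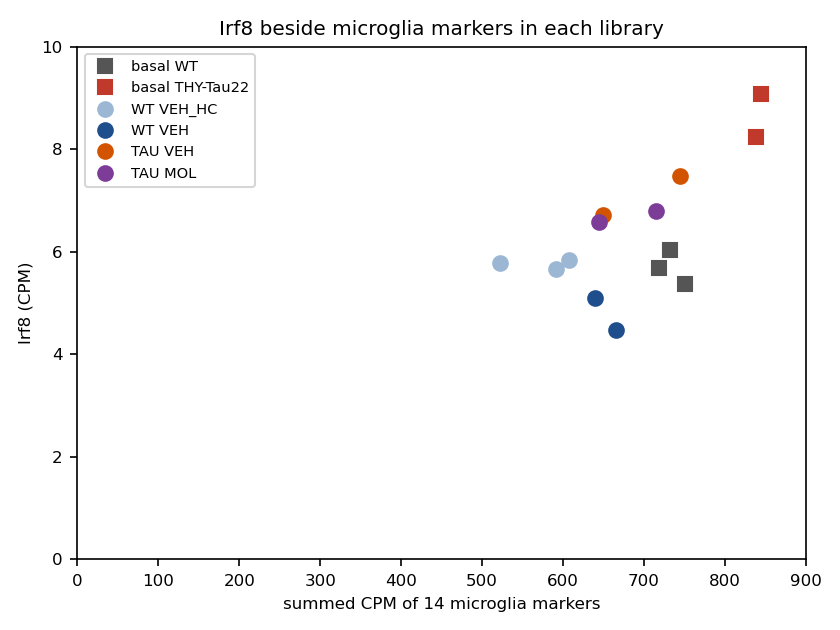
Irf8 (vertical axis, CPM) against the summed CPM of 14 microglia markers (horizontal axis) in each library, with squares for basal and circles for learning libraries, coloured by group, and both axes starting at 0. The basal THY-Tau22 libraries lie highest on both axes, and WT VEH and TAU VEH differ in Irf8 at sums that are close for 3 of their 4 libraries.

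The genes whose profile over the 14 libraries was most like that of Irf8 were named by cosine similarity of log2 CPM, centred within each experiment, among 16216 genes. They were Zfyve20 (0.93), an endosomal trafficking gene, Itgax (0.91), which encodes the integrin CD11c of reactive microglia, and Plxna2 (0.91), a semaphorin receptor. Itgax was at 0.351 to 0.603 CPM in basal WT and at 1.12 and 2.79 CPM in basal THY-Tau22 libraries, and at 0.291 to 0.661 CPM in the 5 WT and 1.55 to 2.18 CPM in the 4 THY-Tau22 learning libraries. Zfyve20 was at 46.5 to 47.8 CPM in basal WT and 51.9 and 55.9 CPM in basal THY-Tau22 libraries, and at 44.6 to 47.5 CPM in the WT and 49.9 to 52.4 CPM in the THY-Tau22 learning libraries. Plxna2 was at 86.7 to 89.7 CPM in basal WT and 101 and 108.9 CPM in basal THY-Tau22 libraries, but in the learning experiment it overlapped, at 106.1 to 122.8 CPM in WT and 118.8 to 122.8 CPM in THY-Tau22. All 3 were chosen for a profile like that of Irf8, so that their levels are a description.

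Irf7 and Irf9, the other interferon regulatory factors among the members, overlapped between the genotypes in the basal experiment and between each THY-Tau22 group and WT VEH. Irf7 (ENSMUSG00000025498, chromosome 7 from 148448605 to 148452380, minus strand, 45 exon bases shared with Phrf1 on the other strand) was at 1.68, 1.49 and 3.33 CPM in basal WT and 2.05 and 3.33 CPM in basal THY-Tau22. In the learning libraries it was at 1.70, 1.97 and 1.52 CPM in WT VEH_HC, 2.01 and 1.46 in WT VEH and 1.34 and 2.15 in TAU VEH, with 1.65 and 1.47 in TAU MOL. Its groups overlapped in all 5 comparisons, and the log2 fold changes of Irf7 lay between -0.15 and 0.32. The basal value of 0.32 was 0.76 without basal WT replicate 3, 0.73 with the replicate block and -0.07 without basal THY-Tau22 replicate 2. Irf9 (ENSMUSG00000002325, chromosome 14 from 56222408 to 56228867, plus strand, 123 exon bases shared with Rnf31) was at 7.35, 8.94 and 9.27 CPM in basal WT and 7.32 and 9.70 CPM in basal THY-Tau22. In the learning experiment Irf9 ran from 5.68 to 7.71 CPM in WT VEH_HC, and it was at 8.89 and 6.75 in WT VEH and 8.51 and 7.51 in TAU VEH, with 8.26 and 9.08 in TAU MOL. Its basal log2 fold change was 0.00 (95% interval -0.40 to 0.39), a narrower interval than for Irf7 (-0.49 to 1.12).

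Ifit1 and Ifit3, which lie close together on chromosome 19, overlapped between the genotypes in both experiments. Ifit1 (ENSMUSG00000034459, from 34715361 to 34724499, plus strand) was at 0.703, 0.919 and 1.73 CPM in basal WT and 1.27 and 2.63 CPM in basal THY-Tau22. Counting error alone gives 95% Poisson intervals of 0.459 to 1.03 CPM for the lowest WT library and 1.30 to 2.25 CPM for the highest, which do not overlap. In the learning experiment Ifit1 was at 0.610, 0.765 and 0.715 CPM in WT VEH_HC, 1.21 and 0.874 in WT VEH and 1.13 and 1.43 in TAU VEH, with 0.935 and 1.02 in TAU MOL. Both WT VEH libraries were above all WT VEH_HC libraries (log2 fold change 0.58, standard error 0.25, adjusted p = 0.162 by edgeR), as were those of 23.0% of all genes. This difference was 0.32 without WT VEH replicate 1 and -0.010 with the choroid plexus covariate. The choroid plexus sum was higher in both WT VEH than in all WT VEH_HC libraries, so that fit cannot tell it apart from training, and its part was not tested. Both TAU MOL libraries were below both TAU VEH libraries (log2 fold change -0.37, 95% interval -0.95 to 0.22, adjusted p = 0.921 by edgeR), as were those of 17.4% of all genes. That value was -0.20 without TAU VEH replicate 2 and -0.56 with the choroid plexus covariate.

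Ifit3 (ENSMUSG00000074896, chromosome 19 from 34658021 to 34663221, plus strand) was at 3.81, 3.22 and 5.72 CPM in basal WT and 3.66 and 6.40 CPM in basal THY-Tau22. It was at 1.63, 2.20 and 1.91 CPM in WT VEH_HC, 1.98 and 2.68 in WT VEH and 2.51 and 3.70 in TAU VEH, with 2.65 and 2.59 in TAU MOL. The groups overlapped in the basal experiment and between TAU VEH and WT VEH, where the log2 fold change was 0.39 (95% interval -0.12 to 0.90). That value was 0.11 without TAU VEH replicate 2 and 0.20 without WT VEH replicate 1. Of the 50-base windows of its exons, 52.6% also occur in I830012O16Rik, a near copy, so that reads of those windows could not align uniquely and the level of Ifit3 is uncertain. I830012O16Rik was counted at 1.76 to 2.45 CPM in basal WT and 2.05 and 4.01 CPM in basal THY-Tau22. For Ifit1 the share of such windows was 8.72%, for Ifitm3 10.2%, for Irf9 1.69%, and for the other members 0.

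Oasl2 (ENSMUSG00000029561, chromosome 5 from 115346943 to 115362243, plus strand) was lower in WT VEH than in either THY-Tau22 group without passing the test. It was at 2.80 and 2.89 CPM in WT VEH, 3.49 and 4.87 in TAU VEH, 4.07 and 4.06 in TAU MOL, and 4.25, 4.29 and 2.19 in WT VEH_HC. Both THY-Tau22 groups were above WT VEH without overlap, as were 28.5% of all genes for TAU VEH (29.4% were lower), but 1 home-cage WT library was the lowest of all. The log2 fold changes were 0.53 (standard error 0.28, adjusted p = 0.260 by edgeR) for TAU VEH and 0.52 (standard error 0.28, adjusted p = 0.350) for TAU MOL, and with the choroid plexus covariate both turned negative. Without TAU VEH replicate 2 the first was 0.30. In the basal libraries Oasl2 was at 3.00, 3.76 and 5.59 CPM in WT and 3.26 and 5.35 CPM in THY-Tau22, a log2 fold change of 0.07 (95% interval -0.59 to 0.72) that ran from -0.33 without basal THY-Tau22 replicate 2 to 0.41 without replicate 1.

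Usp18 (ENSMUSG00000030107, chromosome 6 from 121195924 to 121220934, plus strand), the inhibitor among the members, was the least precisely measured. It was at 0.703, 1.06 and 2.04 CPM in basal WT and 0.838 and 1.72 CPM in basal THY-Tau22, with nearly equal means (1.27 ± 0.693 CPM, SD, n = 3, and 1.28 ± 0.622 CPM, n = 2). Usp18's basal log2 fold change of 0.01 was 0.53 without basal WT replicate 3, 0.49 with the replicate block and -0.585 without basal THY-Tau22 replicate 2. In the learning experiment Usp18 was at 0.636, 0.645 and 0.434 CPM in WT VEH_HC, 0.435 and 0.689 in WT VEH and 0.513 and 1.13 in TAU VEH, with 0.712 and 0.574 in TAU MOL. All groups overlapped, and the 95% interval in TAU VEH vs WT VEH ran from -0.44 to 1.39 on the log2 scale.

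The genes of the membrane proteins Bst2 and Ifitm3 had non-overlapping groups in some comparisons, none of which passed. Bst2 (ENSMUSG00000046718, chromosome 8 from 74058163 to 74061336, minus strand) was at 3.13, 3.22 and 2.38 CPM in WT VEH_HC, 3.70 and 3.89 in WT VEH and 3.28 and 4.15 in TAU VEH, with 4.32 and 4.14 in TAU MOL. The trained WT libraries were above the home-cage ones without overlap (log2 fold change 0.38, standard error 0.17, adjusted p = 0.157 by edgeR), as were those of 23.0% of all genes, and with the choroid plexus covariate the value was 1.19. In the basal experiment Bst2 was at 4.30, 4.11 and 5.12 CPM in WT and 5.06 and 6.67 CPM in THY-Tau22, which overlapped (log2 fold change 0.38, 95% interval -0.06 to 0.81, and 0.17 without basal THY-Tau22 replicate 2).

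Ifitm3 (ENSMUSG00000025492, chromosome 7 from 148195485 to 148196669, minus strand) was at 9.46, 12.8 and 10.0 CPM in WT VEH_HC, 7.81 and 8.45 in WT VEH and 7.94 and 7.66 in TAU VEH, with 10.1 and 10.1 in TAU MOL. Both WT VEH libraries were below all WT VEH_HC libraries, as were those of 20.8% of all genes, and both TAU MOL libraries were above both TAU VEH libraries. In WT VEH vs WT VEH_HC the log2 fold change was -0.41 (standard error 0.13, 95% interval -0.69 to -0.12, adjusted p = 0.0698 by edgeR), and in TAU MOL vs TAU VEH it was 0.37 (standard error 0.14, 95% interval 0.06 to 0.68, adjusted p = 0.729), beside 21.5% of all genes that were higher in both TAU MOL than in both TAU VEH libraries. Markers of endothelial cells, which carry Ifitm3 in the brain, summed to 164, 273 and 179 CPM in WT VEH_HC, 188 and 177 in WT VEH and 141 and 152 in TAU VEH, with 152 and 131 in TAU MOL. The part of these cells in the Ifitm3 differences was not tested. The choroid plexus sum was higher in WT VEH than in WT VEH_HC and higher in TAU MOL than in TAU VEH, without overlap. With it as a covariate the difference in Ifitm3 was 0.16 on the log2 scale in WT VEH vs WT VEH_HC and 0.56 in TAU MOL vs TAU VEH. That fit cannot tell the sum apart from the groups, and the part of the choroid plexus was not tested.

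In WT VEH vs WT VEH_HC, 0 of 9 members passed by edgeR or by DESeq2, beside 8.4% of all genes. Irf8, Ifit1, Ifitm3 and Bst2 had an unadjusted p under 0.05, 4 of 9 beside 27.8% of all genes, and 2 members were higher and 2 lower without overlap, beside 23.0% and 20.8%. With the replicate number as a block, or without WT VEH_HC replicate 3, Ifitm3 and Oasl2 passed, both lower in the trained mice. With the block, the log2 fold change was -0.45 for Ifitm3 (adjusted p = 0.0417) and -0.58 for Oasl2 (adjusted p = 0.0426), and without that library it was -0.46 (adjusted p = 0.0469) and -0.59 (adjusted p = 0.0441). The reported value of Oasl2 was -0.33, and it was -0.19 without WT VEH_HC replicate 1, -0.16 without replicate 2 and 1.63 with the choroid plexus covariate. Ifitm3 was at -0.26 without WT VEH_HC replicate 2 (adjusted p = 0.144), and neither gene passed with the block and the GC and length correction together. In WT VEH_HC replicate 3, Oasl2, Bst2, Irf9 and Usp18 were at their lowest of all 14 libraries, with Usp18 nearly level with WT VEH replicate 1.

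**Figure D3:**
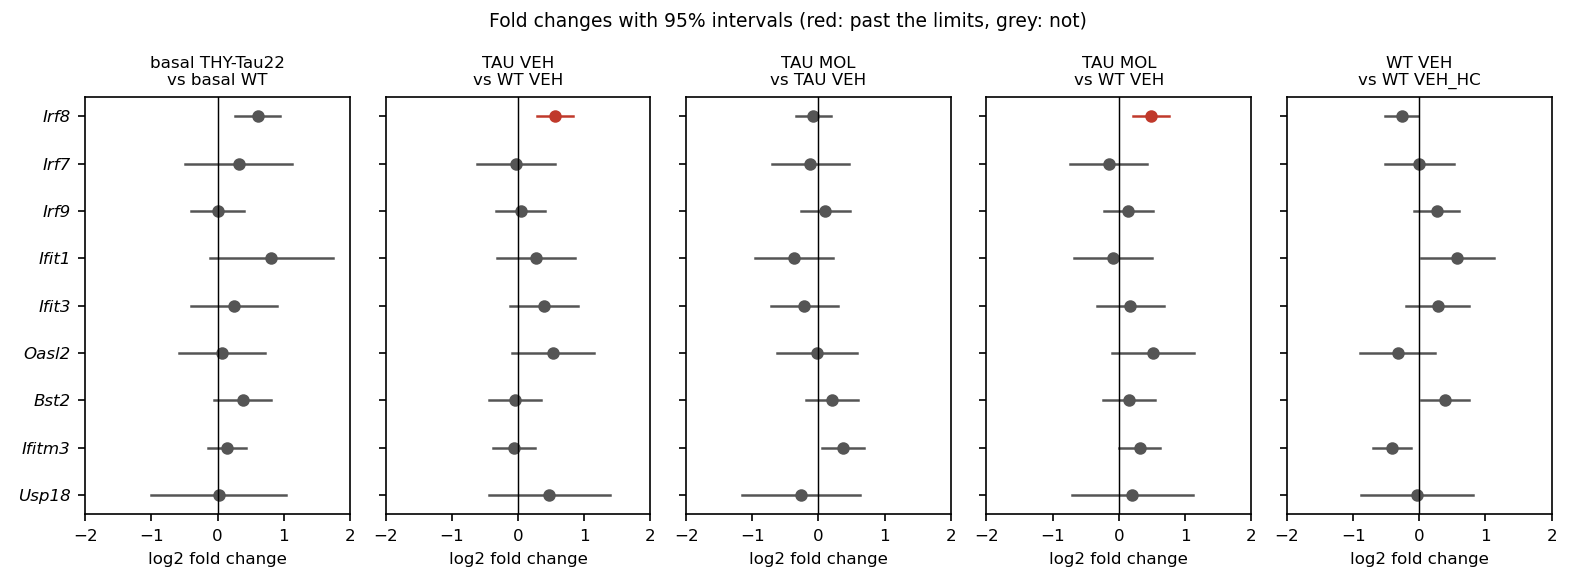
Log2 fold change (horizontal axis) of the 9 members (rows) in the 5 comparisons (panels), with 95% intervals from the edgeR fit as lines and members past both limits in red. Irf8 alone is red, in TAU VEH vs WT VEH (0.56) and TAU MOL vs WT VEH (0.48), and most other intervals cross 0.

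The members shared a pattern between individual mice that the groups do not describe. In basal WT replicate 3, 7 of the 9 members were at their highest among the 3 WT libraries, against 29.9% of all genes, with a median log2 ratio to the mean of the other two of 0.70. In basal THY-Tau22 replicate 2, 8 of 9 were above replicate 1, against 49.4% of all genes, with a median log2 ratio of 0.70 as well. In TAU VEH replicate 2, 7 of 9 were above replicate 1, against 50.6% of all genes, with a median log2 ratio of 0.35. Ifit1, Ifit3, Oasl2, Irf7, Usp18 and Bst2 were high in all 3 of these libraries, and Ifitm3 in none. Among the effectors of the pathway list, which does not hold the members, 29 of 49, 37 of 49 and 30 of 48 were high in the same libraries, with smaller median log2 ratios of 0.18, 0.20 and 0.08.

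These libraries were noticed after their values were seen. The correlation across genes (Spearman) between GC content and the level relative to the experiment mean was -0.60 in basal THY-Tau22 replicate 2 and 0.48 in replicate 1, and the choroid plexus markers summed to 1982 and 698 CPM in them. In TAU VEH replicates 1 and 2 that correlation was -0.62 and -0.41. In basal WT replicates 1, 2 and 3 it was 0.32, 0.08 and 0.07 and the choroid plexus sum was 710, 706 and 593 CPM. TAU VEH replicate 2 held fewer counts than replicate 1, so that Irf8 had 198 counts at 7.47 CPM in it and 340 counts at 6.71 CPM in replicate 1. The part of GC content, choroid plexus and sequencing depth in the pattern was not tested.

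**Figure D4:**
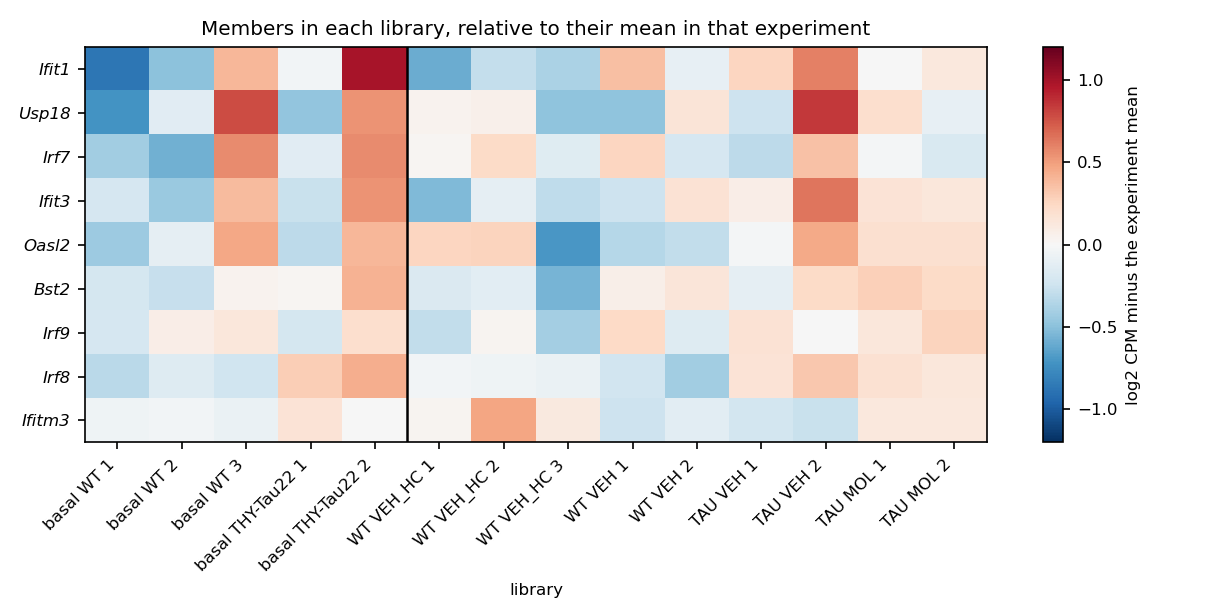
Log2 CPM of each member (rows) in each library (columns), relative to the mean of that gene over the libraries of the same experiment (red above, blue below), with a line between the basal and the learning libraries. Ifit1, Usp18, Irf7, Ifit3 and Oasl2 are red together in basal WT 3, basal THY-Tau22 2 and TAU VEH 2, Irf8 separates the genotypes, and Ifitm3 follows neither.

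Cosine similarity put numbers on this likeness over the 14 libraries, as a description. The closest pairs of members were Oasl2 with Usp18 (0.84), Ifit1 with Ifit3 (0.79) and Ifit3 with Usp18 (0.77). Irf8 was less like the others, from 0.12 with Ifitm3 to 0.56 with Ifit1, and Ifitm3 was opposed to Ifit1 (-0.36). Among genes outside the 9, Irf7 was most like 9530059O14Rik (0.81), Tnfrsf11a (0.79) and B230307C23Rik (0.79), and Irf9 was most like Dcbld2 (0.95), Zkscan3 (0.93) and Eif2c4 (0.93). For Ifit1 these were Aox1 (0.93), Trim30d (0.92) and AW112010 (0.92), and for Ifit3 they were Cep76 (0.88), Msh3 (0.88) and Dus4l (0.87). Oasl2 was most like Pctp (0.88), Wnt2b (0.87) and Gm11542 (0.85), and Usp18 was most like Lrig1 (0.86), Nrg4 (0.81) and Tnfsf13b (0.81). Bst2 was closest to Dennd2d (0.87), Cxcl16 (0.86) and Arhgap42 (0.85), and Ifitm3 to Gbgt1 (0.91), Gm17300 (0.91) and Dusp13 (0.88). With 14 libraries and low counts, high similarities arise for many genes. Of these 27 genes, 0 were in the pathway list, but that list is a chosen one, and a gene outside it can still respond to interferon.

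The rest of the pathway was described from a list of 104 genes that does not hold the 9 members. Of its 19 interferon ligands, none passed the filter on low counts in either experiment, and the learning table listed 1 of them at all. In the basal comparison, 0 of the 77 genes tested passed by edgeR, 9 had an unadjusted p under 0.05 (11.7%, beside 4.92% of all genes), and the median log2 fold change was 0.22, beside -0.01 over all genes; up to 2 genes passed under the alternatives, all higher. In TAU VEH vs WT VEH, 4 of 76 were higher and 1 was lower (6.58%, beside 14.4% of all genes), with a median of 0.17 beside 0.00 over all genes. Under the alternatives, 0 to 13 were higher and 0 to 2 lower. The genes that rose were Cxcl10, a chemokine for T cells (0.965 ± 0.610 against 0.230 ± 0.0864 CPM, SD, n = 2 each, log2 fold change 1.98), Trim21, an antibody receptor of the cytosol (log2 fold change 0.85), Cmpk2, a mitochondrial nucleotide kinase (0.37), and Jak1, the receptor kinase (0.24), which was named after its value was seen. Cxcl10 rested on 7 and 11 counts in WT VEH and on 27 and 37 in TAU VEH, and it overlapped between the basal genotypes (log2 fold change 0.31). Under the alternatives the value of Cxcl10 was as low as 1.21 and that of Trim21 as low as 0.34, and DESeq2 did not call Trim21. Ifitm2, a close relative of Ifitm3 with which it shares some 50-base windows, fell from 6.37 ± 0.0902 to 3.60 ± 0.0196 CPM (SD, n = 2 each, log2 fold change -0.82), while Ifitm3 in the same comparison changed by -0.06 (95% interval -0.38 to 0.26). All 5 calls were lost with the choroid plexus covariate, without WT VEH replicate 1 or 2 and without TAU VEH replicate 2, and all but that of Cmpk2 with the GC and length correction.

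In TAU MOL vs TAU VEH, 0 of 76 genes of the list passed by edgeR or under any alternative run, 2 had an unadjusted p under 0.05 (2.63%, beside 6.33% of all genes), and the median log2 fold change was -0.01. In TAU MOL vs WT VEH, 0 of 76 passed, up to 2 were higher and up to 1 lower under the alternatives, and 10 had an unadjusted p under 0.05 (13.2%, beside 19.8% of all genes), with a median of 0.12 beside 0.00 over all genes. In WT VEH vs WT VEH_HC, 5 genes of the list were higher and 1 was lower (7.89%, beside 8.4% of all genes), with a median of -0.05, and under the alternatives 0 to 7 were higher and 0 to 3 lower. Those that rose were Lgals3bp, a secreted glycoprotein (log2 fold change 0.41), Ifi27l1, a mitochondrial membrane protein (0.38), Mavs, the mitochondrial adaptor of RNA sensors (0.37), Tlr3, the endosomal sensor of double-stranded RNA (0.33), and Jak2, a receptor kinase (0.31), the last 2 named after their values were seen. Adar, which edits double-stranded RNA, fell by 0.26 on the log2 scale. These 6 calls were lost with the choroid plexus covariate, under which 0 of all genes passed, and without WT VEH replicate 1 or 2. Those of Jak2, Tlr3 and Adar were also lost with the GC and length correction, and Tlr3 was called in 4 of 19 alternatives, DESeq2 not among them. The direction of 3 of the 6 turned under an alternative, with Jak2 down to -0.27, Lgals3bp down to -0.04 and Adar up to 0.13.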

How the data were processed

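RNA-seq libraries of 14 mice were made by the authors from poly-A RNA and sequenced as single-end 50-base reads. Per the study's methods and the submitters' processing notes, base calling used CASAVA 1.8.2, reads were aligned to mm9 with TopHat2 2.0.10 and Bowtie2 2.1.0, and uniquely aligned reads were counted on Ensembl genes with HTSeq 0.5.4p3. The authors deposited raw counts, which were used for all tests, and a normalized signal, each library's counts scaled by a constant, which was only checked. The files' columns of the authors' own fold changes and p-values were not used. The learning data list 25933 genes, beside 138 lines without values, and the basal data 26570 genes. Counts per library ran from 24693713 to 52180305. Reads have no molecular identifiers, so Poisson intervals cover counting error only. Counts were not stated to use strand.

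The basal libraries and the 9 learning libraries were each fitted once over all genes with edgeR 4.0.16 (TMM, filterByExpr, quasi-likelihood test, Benjamini-Hochberg adjustment, R 4.3.3), and a gene was called when its adjusted p was below 0.05 and its log2 fold change exceeded 0.2 in size. SE and intervals derive from the F statistic. The test was run on simulated counts with 200 changed genes. Log2 CPM has a prior count of 1, and library ratios an added 0.01 CPM. Alternatives were DESeq2 1.42.0, other scalings and filters, the replicate number as a block, a GC and length correction (loess span 0.3), the choroid plexus score as a covariate, only the groups compared, and leaving out each library, where a lone remaining library is assumed to vary like the other groups. The labels do not say how replicate mice were handled, so p-values measure the spread between these libraries. Named are all members, Thy1, up to 3 called genes of the pathway list in each direction and comparison, and the 3 genes most like each member. Gene positions come from the NCBIM37 (mm9) annotation. Figures were drawn with matplotlib 3.10.9. The members, lists and rules were chosen with earlier results of these data known.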

Additional observations from a re-analysis of the deposited data

How the results depend on the processing

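The direction of Irf8 was the same in all 13 basal alternatives and in all 19 alternatives of each learning comparison. The number of members past the limits, 1 in TAU VEH vs WT VEH, was 0 with the choroid plexus covariate and from 0 to 1 when libraries were left out (0 without WT VEH replicate 2 and without TAU VEH replicate 2). In TAU MOL vs WT VEH, also 1, it was 0 with the replicate block (log2 fold change of Irf8 0.48, adjusted p = 0.0526), with the GC and length correction (adjusted p = 0.113), with both (adjusted p = 0.0972) and with the choroid plexus covariate, and from 0 to 1 when libraries were left out (adjusted p of Irf8 0.0964 and 0.302 without WT VEH replicates 1 and 2, 0.0548 without WT VEH_HC replicate 1, 0.0669 and 0.0667 without TAU VEH replicates 1 and 2, and 0.239 and 0.172 without TAU MOL replicates 1 and 2); DESeq2 gave no adjusted p for any member there. In WT VEH vs WT VEH_HC, 0 in the fit reported, it was 1 without a filter on low counts (Ifitm3, adjusted p = 0.0143), 2 with the replicate block and from 0 to 2 when libraries were left out. Of 801 member values under alternatives, 64 changed sign, and in 10 of them the value before or after exceeded its standard error. With the choroid plexus covariate these were Oasl2 at -0.75 (TAU VEH vs WT VEH), 0.61 (TAU MOL vs TAU VEH), -0.14 (TAU MOL vs WT VEH) and 1.63 (WT VEH vs WT VEH_HC), Usp18 at -0.32 (TAU VEH vs WT VEH), and Ifit1 at -0.010 and Ifitm3 at 0.16 (WT VEH vs WT VEH_HC). The cause was not tested. With 1 library left out, Irf9 ran from -0.22 (without basal THY-Tau22 replicate 2) to 0.21 (without replicate 1) in the basal comparison, and in TAU VEH vs WT VEH Irf7 ran from -0.37 (without TAU VEH replicate 2) to 0.31 (without replicate 1) and Usp18 from -0.12 (without TAU VEH replicate 2) to 1.01 (without replicate 1). The deviations of samples from their group means correlated at -0.16 to -0.06 in the basal and -0.04 to 0.24 in the learning experiment for equal replicate numbers. For different numbers the range was -0.14 to 0.16 and -0.24 to 0.07. In groups of 2 libraries the deviations mirror each other, so these values cannot tell whether the number marks anything that samples shared. The labels do not say that it does, and the block was not part of the reported fit.

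Over all genes, the number called ran from 1 to 125 (4 reported) in the basal comparison, 0 to 3598 (2423) in TAU VEH vs WT VEH, 0 to 233 (0) in TAU MOL vs TAU VEH, 2 to 1590 (947) in TAU MOL vs WT VEH and 0 to 3000 (1413) in WT VEH vs WT VEH_HC. Groups of 2 libraries and counts as low as 18 for Usp18 among the members limit the precision.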
